A study of Mus musculus with 36 samples.

Results

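The genes described here encode the sodium channel, water and urea pores, pump regulators and membrane proteases of the urothelium, the epithelium that lines the bladder. There are 10 of them among the 21705 genes of the deposited expression table, and each was found by its symbol: Scnn1a (gene ID 20276), Scnn1b (20277), Scnn1g (20278), Fxyd3 (17178), Fxyd4 (108017), Aqp3 (11828), Slc14a1 (108052), Prss8 (76560), Tmprss2 (50528) and St14 (19143). The symbols were chosen for their roles, with earlier results of these data known. All 10 passed the filter on low values in every comparison.

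The urothelium keeps stored urine apart from the blood, and it can also take up a little sodium, water and urea from that urine. Sodium enters through the epithelial sodium channel, which is built from alpha, beta and gamma subunits (Scnn1a, Scnn1b and Scnn1g) and is opened further when serine proteases cut its outer loops. Prss8 encodes prostasin, a membrane-anchored protease, St14 encodes matriptase, a transmembrane protease that works in a cascade with prostasin, and Tmprss2 encodes another transmembrane serine protease. Sodium leaves the cell through the sodium-potassium pump, whose activity is tuned by small membrane proteins of the FXYD family, among them those encoded by Fxyd3 and Fxyd4. Aqp3 encodes an aquaporin that passes water and glycerol, and Slc14a1 encodes the urea transporter UT-B.

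RNA sequencing values of 36 mouse libraries were examined. Of the 20 primary bladder tumours, 9 came from UPPL mice, whose genotype in the labels includes Upk3a-CreERT2, p53f/f and Rosa26LSL-Luc and whose treatment is given as Untreated. In these mice the recombinase is placed under the promoter of a uroplakin gene, so it is directed to uroplakin-expressing urothelial cells. The other 11 primary tumours came from mice of genotype Ctrl given N-butyl-N-(4-hydroxybutyl)nitrosamine (BBN), a bladder carcinogen. The 10 line-derived tumours were 4 of the line UPPL1541 (the UPPL genotype), 2 of the line BBN963 and 4 of MB49, an established mouse bladder tumour line; the labels give Ctrl and Untreated for the BBN963 and MB49 tumours. The 6 cultures were 1 each of UPPL1541, BBN963 and MB49 and 3 lines named KT1044, KT1970 and KT1975, all labelled Ctrl and Untreated, the UPPL1541 culture included. The meaning of KT, the host mice, the strain and the age were not given in the sources used here. Tumours of 1 line stem from 1 source, so tests between lines measure the spread between those tumours, and nothing states that the primary tumours came from separate mice.

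Values are in deposited units, scaled in each library so that the upper quartile of values above 0 is about 1000. The depth recovered per library was 9.29 M to 17.9 M reads. The most frequent value above 0 corresponded to 1 read in the cultures and to 2 to 19 reads in the tumours, so a low value in a tumour is less precise than its library size implies, and a gene is said to be listed at 0, not absent. Summed epithelial markers (8 genes, keratins and Epcam among them) lay between 119473 and 628545 units in the primary tumours and between 16156 and 26308 in the MB49 tumours. Of these markers only Esrp1 was at 0 in all 4 MB49 tumours, and Epcam and Krt19 were at 0 in the MB49 culture. By the limma test described below, 6 of the 8 markers were higher and 2 lower in UPPL1541 than in MB49 tumours. The same counts held for BBN963 against MB49 tumours. A difference in a tumour can come from fewer cells of a type or from less RNA per cell, and these values cannot be told apart.

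In primary tumours 3 of the 10 genes were higher in UPPL than in BBN tumours, 0 were lower and 7 did not pass the test (limma, Benjamini-Hochberg adjusted p under 0.05 over all 12818 genes tested). Of all genes tested, 5.71% were higher and 12.8% were lower. The members' median log2 fold change was 0.89, beside -0.19 for all genes. The scaling bears on the split of all calls: 732 were higher and 1639 lower as deposited, against 938 and 987 after quantile normalization and 1086 and 1150 after median-of-ratios scaling. The 3 genes that rose were the urea transporter gene Slc14a1, the prostasin gene Prss8 and the gamma subunit gene Scnn1g.

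Scnn1g, the gamma subunit gene, had the largest fold change of the 10. Its lowest, median and highest values were 2.61, 254.8 and 812.5 in the 9 UPPL tumours and 0, 10.8 and 136 in the 11 BBN tumours. In 5 UPPL tumours it lay above every BBN tumour, and it was listed at 0 in 3 BBN tumours, so the groups overlapped only in part. The log2 fold change was 3.29 (SE 1.10, adjusted p = 0.0398, limma). This call was not stable. It was lost when any 1 of 11 tumours was left out (BBN963, BBN964, BBN965, BBN972, BBN973, BBN974, UPPL1541, UPPL1591, UPPL1612, UPPL1694 or UPPL1695). The highest adjusted p was 0.0739, with log2 fold changes of 2.93 to 3.93 over all 20 such fits. The call was also lost without the primary tumours UPPL1541 and BBN963, which share a number with a line (3.03, adjusted p = 0.0960). The same held without a filter (adjusted p = 0.0526) and with edgeR on recovered reads (2.82, adjusted p = 0.0517).

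Scnn1b, the beta subunit gene, spanned 0, 120.4 and 632 (lowest, median, highest) in UPPL tumours and 0, 33.7 and 113 in BBN tumours. It too lay above every BBN tumour in 5 UPPL tumours, but it was listed at 0 in UPPL1598 and the difference did not pass (log2 fold change 1.643, SE 1.03, adjusted p = 0.27, limma). Scnn1a, the alpha subunit gene, ran the other way in sign without passing, with 24.4, 137 and 641 in UPPL tumours and 38.7, 166 and 989.9 in BBN tumours (-0.41, SE 0.569, adjusted p = 0.65, limma). No test compared the 3 subunit genes with each other.

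Scnn1g and Scnn1b are neighbours on chromosome 7, on the same strand, with no other gene annotated between them in RefSeq (GRCm38.p6). The 250 bases before each annotated start are shown because these subunit genes varied together across the UPPL tumours, as described further on. Capitals mark matches to the GC box GGGCGG on either strand (CCGCCC on the other). Scnn1g (chr7:121734229-121734478, plus strand, GRCm38.p6) held 2 such matches and Scnn1b (chr7:121864788-121865037, plus strand, GRCm38.p6) held 1.
Scnn1g: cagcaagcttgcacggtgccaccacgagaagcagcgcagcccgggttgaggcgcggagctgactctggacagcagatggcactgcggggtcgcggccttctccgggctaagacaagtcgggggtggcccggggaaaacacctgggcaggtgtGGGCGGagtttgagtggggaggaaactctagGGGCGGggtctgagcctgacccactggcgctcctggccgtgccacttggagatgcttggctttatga
Scnn1b: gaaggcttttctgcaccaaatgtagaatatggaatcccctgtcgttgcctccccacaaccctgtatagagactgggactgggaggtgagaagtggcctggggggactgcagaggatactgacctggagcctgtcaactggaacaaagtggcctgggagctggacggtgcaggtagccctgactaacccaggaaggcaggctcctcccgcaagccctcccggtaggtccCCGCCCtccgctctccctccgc

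The GC content of these windows was 65.2% for Scnn1g and 60.8% for Scnn1b, beside a median of 52.4% over 32851 windows of the same length. GC boxes are common, with at least 1 match in 32.7% of those windows. RefSeq windows of 6 of the 10 members were searched on both strands for 6 motifs, chosen after the expression values were seen. The grainyhead motif AACCNGTT (in 1.79% of all windows), the GATA motif AGATAA (9.99%) and the ETS motif CAGGAAGT (2.69%) had no match in the 6. The TATA box TATAAA (12.4%) matched only in the Aqp3 window. The KLF motif GGGTGTGG (3.20%) matched only in the Fxyd4 window, which also held a GC box, as did the Aqp3 window. The windows of Fxyd3 and Tmprss2 held none of the 6 motifs.

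Of the 2 FXYD genes, Fxyd4 shifted more between the models. It spanned 505, 885 and 1749 units in the UPPL tumours and 35.3, 551 and 1014 in the BBN tumours. The 5 lowest values of all 20 primary tumours were BBN tumours and the 3 highest were UPPL tumours, but the difference did not pass (log2 fold change 1.28, SE 0.505, adjusted p = 0.0798, limma). Fxyd3 was nearly the same in both models (medians of 5121 and 5130.4 units; 0.02, SE 0.222, adjusted p = 0.96, limma), and it had the narrowest range of the 10 genes in the BBN tumours, with a highest value 3.55 times the lowest.

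Slc14a1, the urea transporter gene, had the smallest adjusted p of the 10 in primary tumours. It spanned 1488, 4915 and 11833 units in the 9 UPPL tumours and 172, 1637 and 4133 in the 11 BBN tumours. In 5 UPPL tumours it lay above every BBN tumour, and in 5 BBN tumours it lay below every UPPL tumour. The log2 fold change was 2.10 (SE 0.537, adjusted p = 0.0100, limma), and it passed in each of the 20 fits that left out 1 tumour (1.84 to 2.30) and in all 8 other alternatives. Aqp3, the aquaporin gene, was not shifted in the same way: its values of 3167, 9153 and 17520.3 in UPPL tumours and 1729, 8765 and 12717 in BBN tumours gave a log2 fold change of 0.27 (SE 0.358, adjusted p = 0.63, limma).

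Of the protease genes, Prss8 was higher in UPPL tumours. It spanned 309, 1023 and 1282 units there and 168, 430.1 and 917 in BBN tumours, with 5 UPPL tumours above every BBN tumour and UPPL1595 lowest among the UPPL tumours. The log2 fold change was 0.99 (SE 0.291, adjusted p = 0.0221, limma), and it passed in each of the 20 fits without 1 tumour (0.86 to 1.17). Without the 2 primary tumours that share a number with a line, UPPL1541 and BBN963, it did not (0.92, adjusted p = 0.0589).

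Tmprss2 and St14 did not pass in primary tumours. Tmprss2 ranged widely in both models, from 2241 to 20776 units in UPPL and from 562 to 10723 in BBN tumours (log2 fold change 0.78, SE 0.513, adjusted p = 0.29, limma). St14 was even across the tumours, from 2695 to 6579 in UPPL and from 1853 to 7355 in BBN tumours (0.23, SE 0.217, adjusted p = 0.49, limma).

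**Figure D1:**
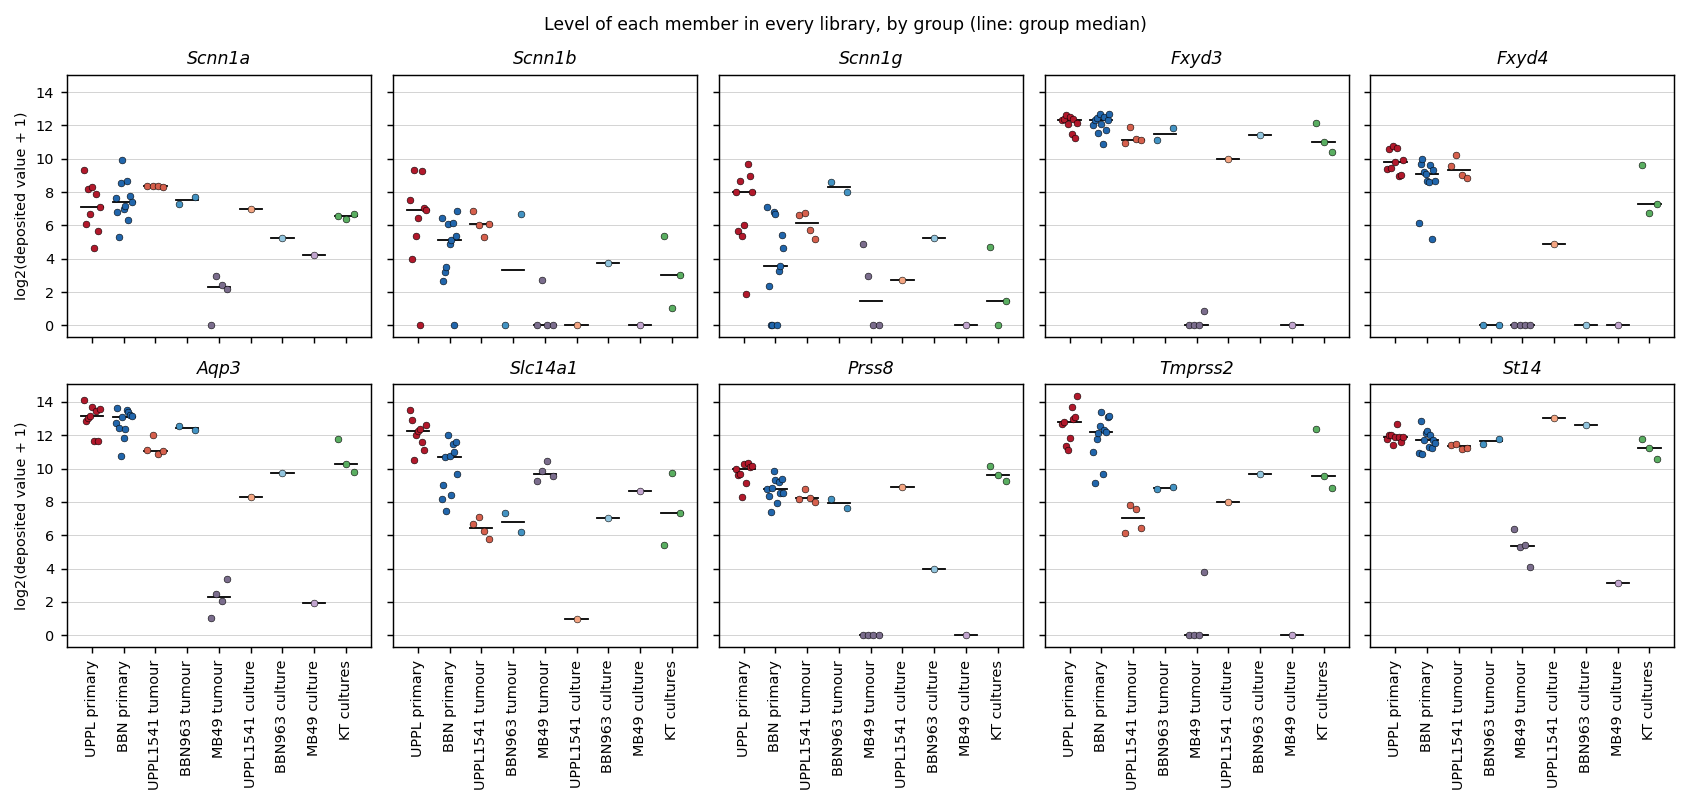
Level of each of the 10 genes in every library on a log2(value + 1) axis, with 1 point per library, grouped by model and by primary tumour, line-derived tumour or culture, and a line at each group's median. Fxyd4 is listed at 0 in both BBN963 tumours and the BBN963 culture, and in all 4 MB49 tumours Fxyd4 and Prss8 are listed at 0 while Slc14a1 lies between 608 and 1391 units.

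Other markers moved with the model in the primary tumours. Summed superficial urothelial markers (6 genes: uroplakins and Krt20) had a median of 19295 units in UPPL (3030.5 to 56085) and 2606 in BBN tumours (115 to 8168), with 4 of 6 markers higher. The fibroblast sum (6 genes) had a median of 1774 in UPPL (330 to 6775) and 7713 in BBN tumours (225 to 55446), with 1 of 6 lower, and the leukocyte sum (6 genes) 436 (193 to 829.2) and 969.1 (288 to 2399), with 2 of 4 tested lower. The smooth muscle sum (4 genes) had a median of 80.1 in UPPL (15.0 to 27209) and 4528 in BBN tumours (55.2 to 119965), with 2 of 4 lower. Of 8 epithelial markers 2 were higher and 0 lower, and their summed medians were 317988 in UPPL and 299014 in BBN tumours. The part of these cell types in the differences of Slc14a1, Prss8 and Scnn1g was not tested.

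Other genes of the same pathways were taken from lists chosen with earlier results of these data known. Of 11 tested regulators of the sodium channel, 3 were higher and 1 was lower in UPPL tumours, and their median log2 fold change was 0.26. The kinase gene Sgk1, which raises channel number at the membrane, fell (-0.99, SE 0.250, adjusted p = 0.00931, limma), while Nedd4l, which encodes the ubiquitin ligase that removes the channel, did not pass (0.28, adjusted p = 0.46). Oxsr1 (0.69), a kinase gene of the WNK pathway, Rab11a (0.55), a recycling gene, and Wnk1 (0.41) rose. Of 7 tested pump subunit and other FXYD genes 0 were higher and 1 was lower, with a median of -0.65, and Atp1b1, a beta subunit gene of the pump, did not pass (1.02, adjusted p = 0.48).

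Of 5 other aquaporin and urea transporter genes tested, Aqp9, an aquaglyceroporin gene, was higher (2.49, adjusted p = 0.00865, limma) and Aqp5 was lower (-4.07, adjusted p = 0.00742), and Aqp1 did not pass (0.31). Of 16 other membrane serine proteases, inhibitors and substrates tested, 3 were higher and 2 were lower, with a median of 0.70. Prss22 (1.34) and Tmprss13 (0.87), further serine protease genes, rose and Serpine2, a protease inhibitor gene, fell (-2.40). Spint1 (0.53) and Spint2 (0.00), which encode the inhibitors of matriptase and prostasin, did not pass. Of 10 other urothelial channel and transporter genes tested, 2 were higher and 2 lower: Trpv4, a stretch- and osmosensitive cation channel gene (2.05, adjusted p = 1.92e-04, limma), and Kcnk1, a potassium channel gene (1.32), rose, P2rx4 (-0.96) and Slc12a2 (-1.33) fell, and Fam38a, the older symbol of the Piezo1 gene, did not pass (-0.22). None of the 3 grainyhead factor genes, which regulate epithelial barrier genes, passed (Grhl1 -0.07, Grhl2 -0.15, Grhl3 1.17).

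In line-derived tumours the MB49 tumours stood apart from both other lines. Against MB49, UPPL1541 tumours had 9 members higher and 1 lower, where 27.3% of 14604 genes were higher and 22.6% lower (limma). BBN963 tumours had 7 higher, 1 lower and 2 not passed, where 15.8% were higher and 26.1% lower. The lower member was Slc14a1 in both. Both comparisons share the MB49 tumours. The members' median log2 fold changes were 6.27 and 6.36, beside 0.05 and -0.24 for all genes, and 6.02 and 5.99 with members listed at 0 throughout a group set at their bound. For BBN963 the split of all calls was 2309 higher and 3812 lower, against 2914 and 2826 with edgeR on recovered reads.

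Aqp3 had 1.04, 4.49, 3.20 and 9.32 units in the 4 MB49 tumours, against 2234, 4181, 1916 and 2114 in the UPPL1541 tumours and 6157 and 5168 in the BBN963 tumours. No MB49 tumour came near either other line, and the log2 fold changes were 9.05 (SE 0.444, adjusted p = 3.33e-08, limma) and 10.23 (SE 0.543, adjusted p = 1.08e-07). Fxyd3 was listed at 0 in 3 MB49 tumours and at 0.804 in the other, against 1998, 3772, 2327 and 2213 in UPPL1541 and 2268 and 3743 in BBN963 tumours. Its differences were 11.07 and 11.30, the largest of the 10 genes in both comparisons.

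The protease genes were also lower in MB49 than in either other line. Prss8 was listed at 0 in all 4 MB49 tumours and had 292, 433, 304 and 259.6 units in UPPL1541 and 292 and 196 in BBN963 tumours. The floor in each MB49 tumour was taken as the larger of 3 reads and its most frequent low value. Set against the highest of these floors, the group mean of Prss8 was at least 28.1-fold higher in UPPL1541 and at least 21.3-fold higher in BBN963 tumours (adjusted p = 5.74e-08 and 7.63e-07, limma). St14 was low but present in MB49, at 81.2, 38.2, 41.6 and 16.3 units, against 2354 to 2812 in UPPL1541 (log2 fold change 6.04, SE 0.367) and 2910 and 3547 in BBN963 tumours (6.36, SE 0.449). Tmprss2 was at 0 in 3 MB49 tumours and at 12.8 in the other, against 68.1, 223, 194 and 84.5 in UPPL1541 (6.04, SE 0.865) and 435 and 472 in BBN963 tumours (7.88, SE 1.06).

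For the sodium channel, Scnn1a had 0, 6.73, 4.26 and 3.50 units in the MB49 tumours, 335, 331, 333 and 320.3 in UPPL1541 and 156 and 208 in BBN963 tumours. The 4 UPPL1541 tumours lay within a narrow band, and both lines were above MB49 (log2 fold changes 6.49, SE 0.600, and 5.62, SE 0.735). Scnn1g had 28.1, 6.73, 0 and 0 units in MB49, 98.0, 107, 50.9 and 35.7 in UPPL1541 (4.12, SE 1.012, adjusted p = 0.00573, limma) and 390 and 259.8 in BBN963 tumours (6.36, SE 1.24, adjusted p = 0.00175). Scnn1b had 115.9, 65.2, 38.5 and 67.9 units in UPPL1541 tumours and 5.61 in 1 MB49 tumour, with 0 in the other 3 (5.40, SE 1.25, adjusted p = 0.00401). In the BBN963 tumours Scnn1b was listed at 0 in tumour 1 and at 102 in tumour 2, and the difference from MB49 did not pass (2.66, adjusted p = 0.19). Tumour 1 is the library whose most frequent low value is 19 reads, and without it Scnn1b passed (6.001, adjusted p = 0.00331). Without tumour 2 the difference turned to -0.68, so its direction rests on which of the 2 tumours is kept.

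Slc14a1 was the only one of the 10 genes that was lower in both lines than in MB49. It had 608, 919, 1391 and 740.1 units in the MB49 tumours, 99.2, 136, 75.7 and 53.6 in the UPPL1541 tumours and 164 and 73.5 in the BBN963 tumours. Every MB49 tumour lay above every tumour of the other lines (log2 fold changes -3.32, SE 0.377, adjusted p = 2.87e-05, and -2.98, SE 0.462, adjusted p = 3.87e-04, limma). The MB49 culture had 409.5 units of Slc14a1, beside 0.934 in the UPPL1541 culture and 129 in the BBN963 culture.

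Between UPPL1541 and BBN963 tumours Fxyd4 was the only one of the 10 genes called (1 higher, 0 lower, 9 not passed; 21.4% of all genes were higher and 7.37% lower). Fxyd4 had 754, 1201, 529 and 454 units in the UPPL1541 tumours and was listed at 0 in both BBN963 tumours (adjusted p = 8.95e-06, limma). The mean of the UPPL1541 tumours was at least 30.5-fold higher, set against the highest floor of the BBN963 tumours. All genes shifted by a median of 0.32 in this comparison, and the split of all calls was 3132 higher and 1076 lower, against 1887 and 1719 after quantile normalization. Slc14a1, which was higher in UPPL than in BBN primary tumours, had a log2 fold change of -0.35 here (SE 0.462, adjusted p = 0.61), and Scnn1g one of -2.25 (SE 1.24, adjusted p = 0.20). Aqp3 had -1.19 (SE 0.543, adjusted p = 0.12) and passed as lower with a pseudocount of 10 (-1.18, adjusted p = 0.0178), with edgeR on recovered reads (-1.33, adjusted p = 0.0150) and without MB49 tumour 1 (adjusted p = 0.0452). Scnn1b (2.74, adjusted p = 0.20) passed as higher without BBN963 tumour 2 (6.08, adjusted p = 0.00596) and turned to -0.60 without BBN963 tumour 1, so its value rests on which of the 2 tumours is kept.

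Fxyd4 was also listed at 0 in all 4 MB49 tumours and in the MB49 culture. Its mean in the UPPL1541 tumours was at least 64.2-fold higher, set against the highest floor of the MB49 tumours (adjusted p = 1.15e-07, limma). Between BBN963 and MB49, both listed at 0, no fold is given.

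**Figure D2:**
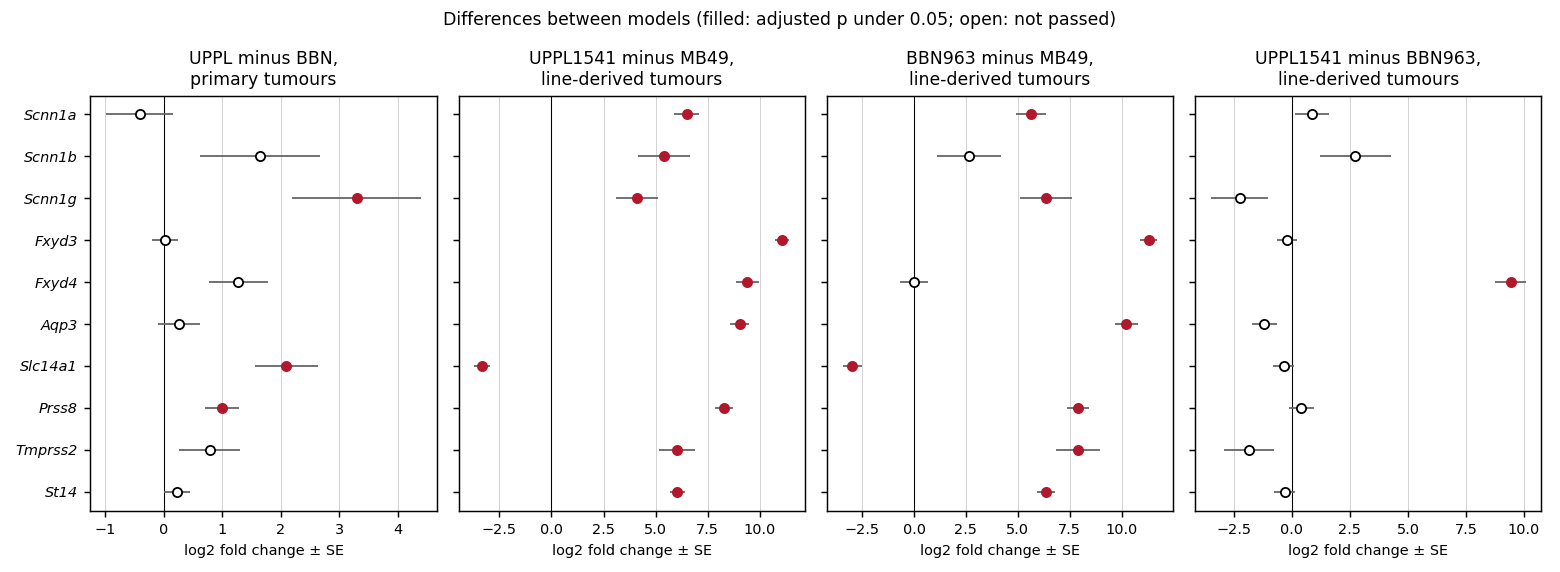
Log2 fold change ± SE of each gene between models, on the log2(value + 1) scale, in 4 panels: UPPL against BBN primary tumours (9 and 11), then UPPL1541 (4) against MB49 (4), BBN963 (2) against MB49, and UPPL1541 against BBN963 line-derived tumours. Filled points have an adjusted p under 0.05; Slc14a1 is right of 0 in primary tumours and left of 0 against MB49, and differences of genes listed at 0 in a whole group (Fxyd4 and Prss8) depend on the pseudocount.

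The marker lists moved with these lines as well. The epithelial sum was 255030.5 to 343747 units in UPPL1541, 380170.3 to 404393 in BBN963 and 16156 to 26308 in MB49 tumours, and 6 of 8 markers were higher and 2 lower in each of the 2 lines against MB49. The leukocyte sum was 2561 to 4380.5 in UPPL1541, 2005 to 2207 in BBN963 and 7008 to 8825 in MB49 tumours. The fibroblast sum was 73862 to 368464 in UPPL1541, 86636 to 113637 in BBN963 and 14883 to 110663 in MB49 tumours. The superficial urothelial sum was 3174 to 6073 in UPPL1541, at most 360.4 in BBN963 and 8.53 to 22.9 in MB49 tumours. Skeletal muscle markers summed to 3691 to 11053 in MB49 tumours, to 29.2 and 5924 in the 2 BBN963 tumours and to 15.5 to 468 in UPPL1541 tumours. Their part in the members' differences was not tested.

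Genes around the members split in the same comparisons. Of 17 other membrane protease, inhibitor and substrate genes tested, 15 were higher and 1 lower in UPPL1541 and 13 higher and 1 lower in BBN963 against MB49 tumours, with medians of 3.76 and 4.41. Spint1 (2.80 and 2.69) and Spint2 (1.16 and 1.70), the inhibitor genes, were among those higher. All 3 grainyhead genes were higher in both lines, with Grhl3 listed at 0 in all 4 MB49 tumours and at 675 to 1275 in UPPL1541 and 1141 to 1341 in BBN963 tumours. The pump genes were split: of 10 tested, 5 were higher and 5 lower in UPPL1541, with Fxyd5, another FXYD gene, lower in both lines (-1.84 and -2.01). Atp1b1 was higher in UPPL1541 (1.011) and lower in BBN963 tumours (-3.44).

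Among the sodium channel regulators, 3 of 11 were higher and 5 lower in UPPL1541, and 2 higher and 4 lower in BBN963 tumours, with Sgk1 lower in both (-1.35 and -1.93) and Nedd4l not passing in either (-0.41 and -0.73). Of 7 other aquaporin and urea transporter genes tested, 3 were higher and 2 lower in UPPL1541, and 2 of each in BBN963. Aqp1 (-2.59 and -4.51) and Aqp5 (-2.12 and -4.27) were lower in both lines and Aqp9 (3.51 and 4.17) was higher. Of 11 other channel and transporter genes, 3 were higher and 5 lower in UPPL1541, and 2 higher and 5 lower in BBN963, and Kcnk1 was listed at 0 in every MB49 tumour and at 610 to 738 in UPPL1541 and 1019.6 to 1082 in BBN963 tumours.

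Line-derived tumours were then set against the primary tumours of their model. In UPPL1541 tumours 5 of the 10 genes were lower than in UPPL primary tumours, 0 were higher and 5 did not pass (of 15229 genes, 5.98% were lower and 20.5% higher; limma). Their median log2 fold change was -0.85, beside 0.37 for all genes, and 3128 genes were higher and 911 lower, against 1815 and 1736 after quantile normalization. Slc14a1, at 53.6 to 136 units in the 4 line-derived and 1488 to 11833 in the 9 primary tumours, fell by 5.67 on the log2 scale (SE 0.671, adjusted p = 1.23e-06). Tmprss2, at 68.1 to 223 against 2241 to 20776, fell by the same 5.67 (SE 0.648, adjusted p = 7.54e-07). Neither gene's groups overlapped.

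Aqp3 (-1.74, SE 0.448, adjusted p = 0.00509), Prss8 (-1.42, SE 0.366, adjusted p = 0.00520) and Fxyd3 (-0.85, SE 0.289, adjusted p = 0.0301) were also lower in UPPL1541 tumours, and their ranges overlapped those of the primary tumours. Fxyd3 lost its call without UPPL1541 tumour 1 (-0.74, adjusted p = 0.106), 3 (-0.82, adjusted p = 0.0794) or 4 (-0.79, adjusted p = 0.0867). The 3 channel subunit genes did not pass: Scnn1a was at 320.3 to 335 units in the line-derived tumours against 24.4 to 641 in the primary tumours (1.27, adjusted p = 0.18), Scnn1b gave -0.12 and Scnn1g -0.85.

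Markers of several cell types moved in this comparison too. All 6 fibroblast markers were higher in the UPPL1541 tumours, with sums of 73862 to 368464 units against 330 to 6775 in the UPPL primary tumours, and 5 of 6 leukocyte markers were higher (2561 to 4380.5 against 193 to 829.2). Of the 6 superficial urothelial markers 4 were lower and 1 higher (3174 to 6073 against 3030.5 to 56085), and of the 8 epithelial markers 4 were lower and 0 higher (255030.5 to 343747 against 119473 to 628545). Their part in the lower values of Slc14a1, Tmprss2, Aqp3, Prss8 and Fxyd3 was not tested.

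In BBN963 tumours 3 genes were lower than in BBN primary tumours, 0 were higher and 7 did not pass (5.67% of all genes lower, 2.09% higher; limma). Their median log2 fold change was -0.72, beside -0.17 for all genes, whose calls were 318 higher and 864 lower, against 426 and 679 with median-of-ratios scaling. Fxyd4 was listed at 0 in both line-derived tumours while all 11 BBN primary tumours had 35.3 units or more, including the primary tumour BBN963, whose number the line carries, at 839 (adjusted p = 1.04e-07; at least 21.6-fold lower than the mean of the primary tumours, set against the floor). It was also listed at 0 in the BBN963 culture.

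The promoter window of Fxyd4, the only member that differed between UPPL1541 and BBN963 tumours by the test, is shown for its 2 motif matches (chr6:117937336-117937585, minus strand, GRCm38.p6, printed 5′ to 3′ along the gene). Capitals mark the KLF motif GGGTGTGG and the GC box GGGCGG. Its GC content was 58.0%. A match in this window is a description of the letters only.
Fxyd4: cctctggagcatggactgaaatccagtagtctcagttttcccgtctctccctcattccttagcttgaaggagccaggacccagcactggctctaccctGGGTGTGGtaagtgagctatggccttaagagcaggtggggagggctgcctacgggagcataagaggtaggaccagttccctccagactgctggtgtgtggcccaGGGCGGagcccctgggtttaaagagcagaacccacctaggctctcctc

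Slc14a1 fell in BBN963 tumours by 3.23 on the log2 scale (164 and 73.5 units against 172 to 4133; SE 0.859, adjusted p = 0.01995) and Tmprss2 fell by 3.04 (435 and 472 against 562 to 10723; SE 0.829, adjusted p = 0.0226). Both lay below every BBN primary tumour. With 2 tumours in the group, both calls were lost without BBN963 tumour 1 (Slc14a1 -3.80, adjusted p = 0.121; Tmprss2 -2.99, adjusted p = 0.255) or tumour 2 (-2.66, adjusted p = 0.251; -3.10, adjusted p = 0.146), which leaves 1 tumour assumed to vary like the other groups. Scnn1g ran higher in BBN963 tumours (390 and 259.8 units against 0 to 136) without passing (4.69, SE 1.73, adjusted p = 0.0963). Aqp3 (-0.29), St14 (-0.04) and Scnn1a (-0.01) had differences near 0.

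Beside these, 3 of 6 superficial urothelial markers were lower in BBN963 than in BBN primary tumours and 0 were higher (sums of at most 360.4 against 115 to 8168 units, with all 5 uroplakin genes of the list at 0), and 3 of 8 epithelial markers were lower and 0 higher (380170.3 to 404393 against 209194 to 524026). Of 6 fibroblast markers 1 was higher (86636 to 113637 against 225 to 55446), as was 1 of 6 leukocyte markers (2005 to 2207 against 288 to 2399) and 1 of 4 skeletal muscle markers. Their part in the lower values of Fxyd4, Slc14a1 and Tmprss2 was not tested.

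The change of the model difference itself was tested as an interaction: the UPPL minus BBN difference in line-derived tumours against the same in primary tumours. The line-derived side holds only the lines UPPL1541 and BBN963, 1 for each model, so line and model cannot be told apart there. Of the 10 genes only Fxyd4 passed (1 higher, 0 lower, 9 not passed; adjusted p = 1.78e-05, limma), where 8.16% of all genes were higher and 1.06% lower. It passed in all 26 fits that left out 1 library and under all 8 other alternatives. All genes shifted by a median of 0.55 here, and 1243 were higher and 161 lower, against 447 and 328 after quantile normalization. Slc14a1 (-2.45, SE 1.09, adjusted p = 0.16), Scnn1g (-5.54, SE 2.20, adjusted p = 0.11) and Tmprss2 (-2.63, SE 1.05, adjusted p = 0.11) did not pass, so their differences are not shown to change between primary and line-derived tumours.

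Against the cultures of the same 3 lines, with line as a factor, 3 genes were higher in the tumours, 0 lower and 7 did not pass (20.1% of 14321 genes were higher and 8.99% lower; limma). The members' median log2 fold change was 1.27, beside 0.13 for all genes, and the split of all calls was 2876 higher and 1287 lower, against 2152 and 2203 after quantile normalization, where none of these 3 passed. Aqp3 was at 313 units in the UPPL1541 culture (1916 to 4181 in its tumours), 847 in the BBN963 culture (6157 and 5168) and 2.89 in the MB49 culture (1.04 to 9.32), a log2 fold change of 1.95 (SE 0.537, adjusted p = 0.0159). Scnn1g was at 5.60, 36.5 and 0 units in these cultures (2.78, SE 0.935, adjusted p = 0.0405). Slc14a1 was at 0.934, 129 and 409.5 in these cultures (2.25, SE 0.772, adjusted p = 0.0435). Its tumours had 53.6 to 136 units in UPPL1541, 164 and 73.5 in BBN963 and 608 to 1391 in MB49. The BBN963 tumours thus lay on both sides of their culture.

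These 3 calls were not stable. Without the UPPL1541 culture none passed (Aqp3 1.39, adjusted p = 0.139; Scnn1g 2.47, adjusted p = 0.158; Slc14a1 0.49, adjusted p = 0.504), and without the BBN963 culture Aqp3 did not (1.63, adjusted p = 0.0770). Of the 13 fits that left out 1 library, Scnn1g passed in 4 (without MB49 tumour 1, 3 or 4 or UPPL1541 tumour 4) and Slc14a1 in 4 (without BBN963 tumour 2, MB49 tumour 1, the BBN963 culture or the MB49 culture). All 6 fibroblast, all 5 tested leukocyte, all 4 smooth muscle and all 4 endothelial markers were higher in the tumours than in the cultures, where the fibroblast sum was 27.1 to 1006 units; the part of host cells in the members' differences was not tested.

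In the cultures themselves St14 was at 8493 units in the UPPL1541 culture and 6352 in the BBN963 culture, above every one of their line-derived tumours (2354 to 3547). Prss8 was at 472 in the UPPL1541 culture but 14.6 in the BBN963 culture, whose tumours had 292 and 196. The UPPL1541 culture had 1002 units of Fxyd3, 123 of Scnn1a, 250.2 of Tmprss2, 28.9 of Fxyd4 and 0 of Scnn1b, and the BBN963 culture had 2700.3 of Fxyd3, 36.5 of Scnn1a, 831 of Tmprss2, 0 of Fxyd4 and 12.2 of Scnn1b. In the MB49 culture Scnn1a (17.3), St14 (7.71) and Aqp3 (2.89) were low and the other 6 genes apart from Slc14a1 were listed at 0.

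The 3 KT cultures held all of the genes except Scnn1g in KT1970. In KT1044, KT1970 and KT1975 in turn, Tmprss2 was at 5363, 768 and 456 units, Fxyd4 at 787, 106 and 158, Aqp3 at 3448, 1263 and 874, and Slc14a1 at 41.1, 864 and 164. KT1044 was the highest of the 3 in Tmprss2, Fxyd4 and Aqp3 and the lowest in Slc14a1. Scnn1a was even (92.2, 83.6 and 102). Prss8 was at 1124, 791 and 619, and Scnn1b (39.97, 1.10 and 7.11) and Scnn1g (25.5, 0 and 1.78) were low in KT1970 and KT1975.

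**Figure D3:**
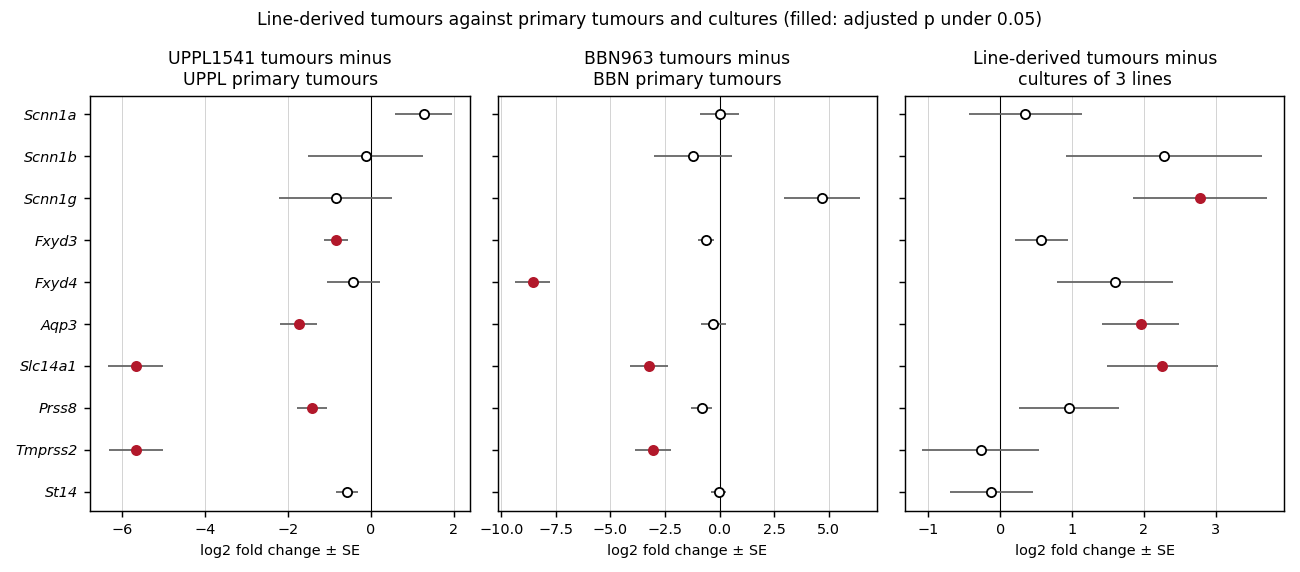
Log2 fold change ± SE of each gene in UPPL1541 tumours (4) against UPPL primary tumours (9), in BBN963 tumours (2) against BBN primary tumours (11), and in line-derived tumours (10) against the cultures of their 3 lines. Filled points have an adjusted p under 0.05: Slc14a1 and Tmprss2 are filled left of 0 in both of the first 2 panels, and the difference of Fxyd4 in BBN963, where it is listed at 0, depends on the pseudocount.

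Ordered by group median, Slc14a1 ran from UPPL primary (4915 units) through BBN primary (1637), MB49 tumours (829.6), the MB49 culture (409.5), KT cultures (164), the BBN963 culture (129), BBN963 tumours (119) and UPPL1541 tumours (87.5) to the UPPL1541 culture (0.934). Its ranges overlapped between neighbours at every step except from MB49 tumours to their culture and from UPPL1541 tumours to theirs. Fxyd4 ran from UPPL primary (885) through UPPL1541 tumours (641), BBN primary (551), KT cultures (158) and the UPPL1541 culture (28.9) to the BBN963 and MB49 tumours and cultures, all listed at 0. Tmprss2 was highest in primary tumours (7091 in UPPL and 4786 in BBN, overlapping) and lay below 1000 in every other group's median. St14 had its 2 highest medians in cultures, UPPL1541 (8493) and BBN963 (6352).

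Across tumours of 1 model, the 10 genes give 45 pairs, and 90 correlations were computed over both models on log2(value + 1), with permutation p-values adjusted over all 90. In the 9 UPPL tumours 2 positive and 1 negative Pearson correlation passed, and in the 11 BBN tumours none did (2 at an unadjusted p under 0.05). No Spearman correlation passed after adjustment (lowest adjusted p = 0.135). The labels name no batch, and the tumours of a model share their tissue and processing.

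Scnn1b and Scnn1g, the neighbouring subunit genes whose promoter windows are printed with the primary tumours, had r = 0.94 in the UPPL tumours (exact permutation p = 2.70e-04, adjusted p = 0.0243; rho = 0.867, exact p = 0.00451). UPPL1598 was lowest in both (0 and 2.61 units) and UPPL1591 (632 and 407) and UPPL1612 (612 and 812.5) were highest in Scnn1b. Without the 2 tumours farthest from the median of Scnn1b, UPPL1544 and UPPL1598, r was 0.83. In the BBN tumours r was 0.44 (permutation p adjusted to 0.53), and the difference between the models was not tested.

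Scnn1g and Fxyd4 ran in opposite directions in the UPPL tumours (r = -0.85, exact permutation p = 0.00125, adjusted p = 0.0376; rho = -0.900, exact p = 0.00203). The 3 tumours highest in Fxyd4, UPPL1595 (1749 units), UPPL1598 (1609) and UPPL1544 (1551), were the 3 lowest in Scnn1g (39.8, 2.61 and 50.6). Without UPPL1595 and UPPL1598 r was -0.87. The BBN tumours gave r = -0.33, which did not pass.

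Aqp3 and Scnn1a rose together in the UPPL tumours (r = 0.88, exact permutation p = 7.69e-04, adjusted p = 0.0346; rho = 0.883, exact p = 0.00308). UPPL1541 was highest in both (17520.3 and 641 units) and UPPL1598 lowest in both (3167 and 24.4). Without UPPL1598 and UPPL1694, the 2 farthest from the median of Aqp3, r was 0.76. In the BBN tumours r was -0.04. After quantile normalization only Scnn1b with Scnn1g passed (r = 0.95, adjusted p = 0.0231), while Aqp3 with Scnn1a (0.86, adjusted p = 0.100) and Scnn1g with Fxyd4 (-0.81, adjusted p = 0.129) did not.

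**Figure D4:**
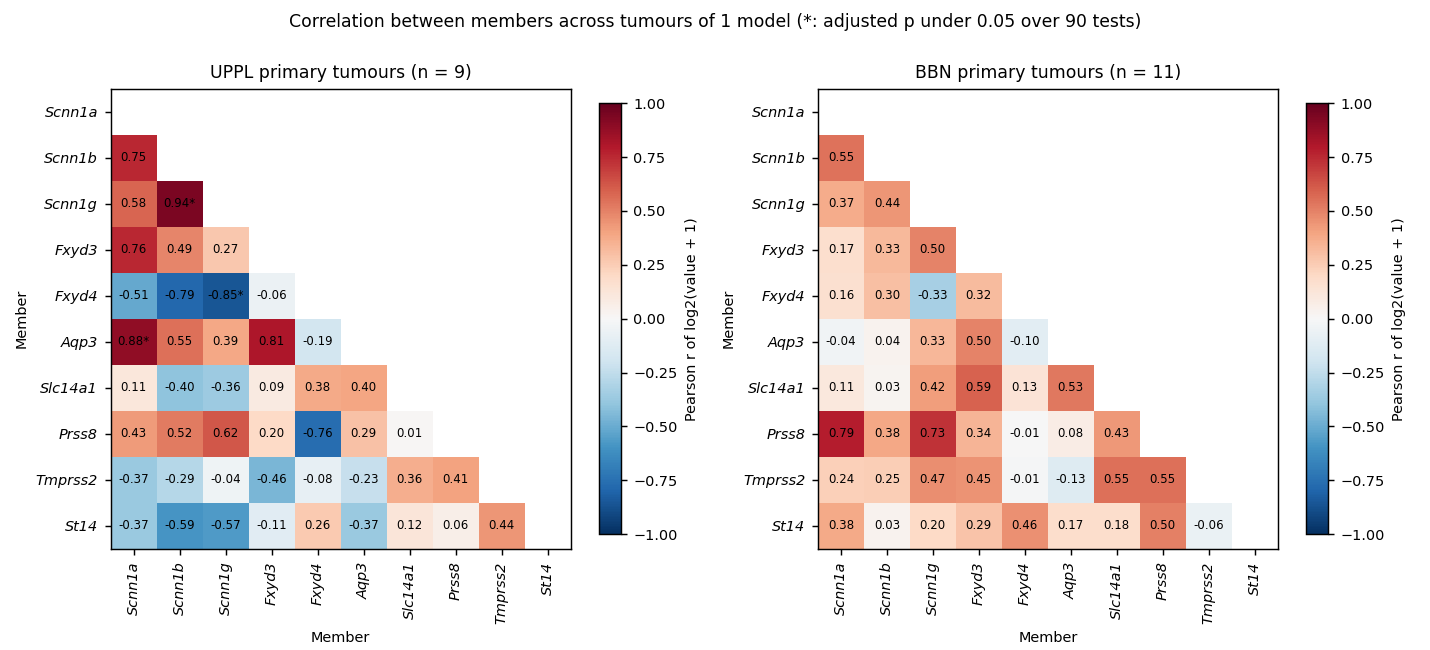
Pearson r of log2(value + 1) for each of 45 gene pairs across the 9 UPPL (left) and 11 BBN (right) primary tumours, from blue (negative) to red (positive). An asterisk marks an adjusted p under 0.05 over 90 tests: Scnn1b with Scnn1g, Aqp3 with Scnn1a and Scnn1g with Fxyd4 carry one in UPPL, and no BBN pair does.

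**Figure D5:**
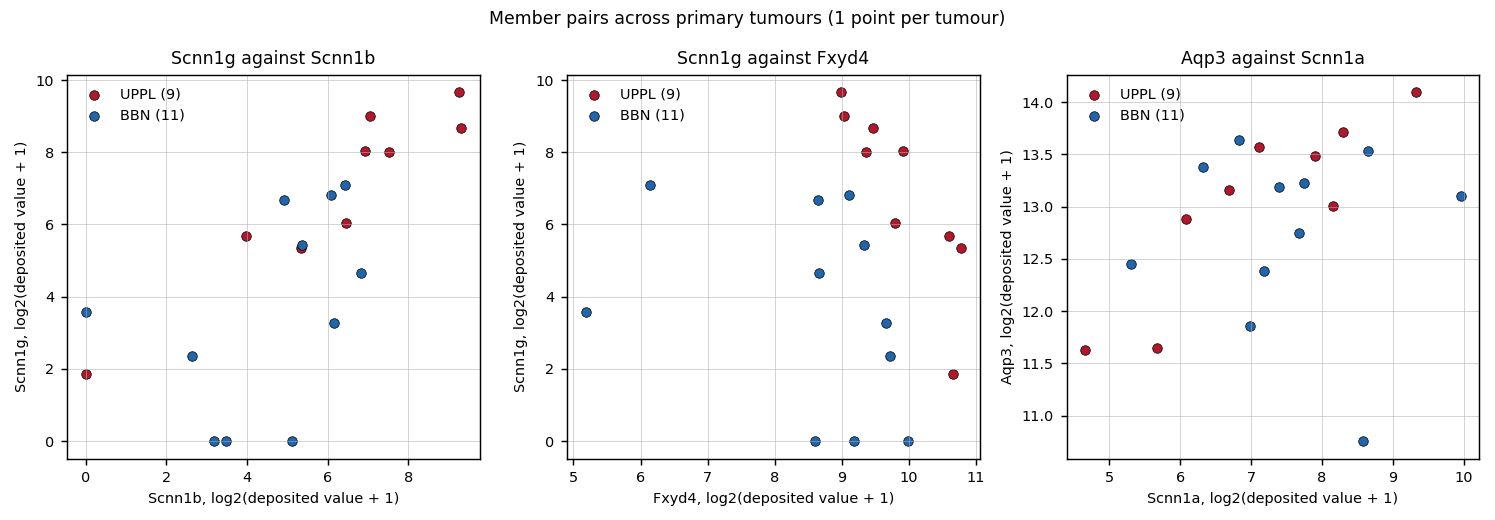
Scnn1g against Scnn1b, Scnn1g against Fxyd4 and Aqp3 against Scnn1a in log2(value + 1), with 1 point for each of 9 UPPL (red) and 11 BBN (blue) primary tumours. The UPPL points form a rising band in the first and the last panel and a falling one in the middle, and 3 BBN tumours lie at 0 in Scnn1g.

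The genes whose pattern was most like each member's were named by Pearson r of log2 values centred within model over the 20 primary tumours, among the eligible genes given below. Those reported here were Nus1 (r = 0.81) for Aqp3, Vcp (0.89) for Scnn1a, BC003266 (0.82) and Pef1 (0.80) for Scnn1b, and Tfcp2l1 (0.85) and Pigo (0.81) for Scnn1g. Krt15 (0.84), a keratin gene, and Ly6d (0.83) were most like Fxyd3, and Rtn4 (0.82) and Prss32 (0.79) most like Fxyd4. Tnfaip2 (0.85) and Enpp4 (0.82) were most like Slc14a1. Sh3gl2 (0.81) and Pdzk1ip1 (0.81) were most like Prss8, Bace2 (0.87) and Acss1 (0.86) most like Tmprss2, and Pvrl2 (0.81) and Elf3 (0.80) most like St14. Eligible were genes past the filter of the primary tumour fit with a mean of at least 100. Predicted (Gm) and Riken symbols, symbols held by more than 1 row and the members themselves were left out. Each r comes from the same 20 libraries, and these values are a description with no test.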

How the data were processed

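The authors deposited 1 table of RSEM-derived signal values per gene, scaled so that the upper quartile of values above 0 is about 1000 in each library. Libraries were made with a stranded mRNA kit, per the labels' protocols. The submitters' processing notes list RSEM, SAMtools and Picard, with mm9 as the build. Samples were grouped by the labels. All 36 columns were used. The members and gene lists were chosen with earlier results of these data known, and some items of the labels and some genes that the rule below names are not reported here.

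Comparisons used limma 3.58.1 (R 4.3.3, trend) on log2(value + 1), in 4 fits. These held primary tumours, line-derived tumours, primary with UPPL1541 and BBN963 line-derived tumours, and line-derived tumours with cultures (line as a factor). Genes with a value of at least 10 in at least 9, 2, 2 and 3 libraries of these fits, in turn, were tested. These numbers are the size of the smallest group, except that 3 was set for the fit with cultures. Benjamini-Hochberg adjustment ran over all genes tested, at 0.05. Whole reads were recovered for 93.0% to 96.6% of values below 200 reads (within 0.02 of a whole number) and tested with edgeR 4.0.16 as an alternative. The fits were tested on simulated data. Correlations used exact permutation tests for 9 tumours and 100000 resamples for 11 (scipy 1.17.1, Python 3.11.15).

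Named were all 10 members, of each pathway list the first 2 genes and up to 3 more with the smallest adjusted p, and per member the 2 genes of the highest correlation. Promoter letters are from RefSeq (GRCm38.p6), another build than that of the files. Alternatives were another pseudocount, other filters, quantile and median-of-ratios scaling, edgeR, libraries left out and a replicate block.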

Additional observations from a re-analysis of the deposited data

Results flagged for a closer look

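Of 28 sets of 1 gene in 1 group of 4 to 10 tumours that were checked for a sample far from the others, 4 held one. Chance gives about 1 in 20 for continuous values, but in 3 of these 4 sets the other tumours are all at 0, so that any value above 0 stands apart by construction and this rate does not apply. Groups of another size were not checked, namely the 11 BBN primary tumours, the 2 BBN963 tumours and the cultures. Scnn1b was at 5.61 units in MB49 tumour 2 and listed at 0 in the other 3 MB49 tumours. Fxyd3 was at 0.804 in MB49 tumour 4 (where 1 read is worth 1.17 units) and Tmprss2 at 12.8 in the same tumour, with the other 3 listed at 0 in both genes. St14, the matriptase gene, was at 6579 units in the primary tumour UPPL1598, with the other 8 UPPL tumours between 2695 and 4133. UPPL1598 was also the lowest UPPL tumour in Scnn1a, Scnn1b, Scnn1g and Aqp3.

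The difference of Fxyd4 between UPPL1541 and BBN963 tumours was larger than that between UPPL and BBN primary tumours. The interaction was 8.14 on the log2(value + 1) scale (SE 1.03, adjusted p = 1.78e-05, limma). Each model is 1 line in the line-derived tumours, so line and model cannot be told apart there. Fxyd4 is listed at 0 in both BBN963 tumours, so this size depends on the pseudocount: it lay between 4.89 and 11.1 over the 8 other alternatives and between 7.87 and 8.48 over the 26 fits that left out 1 library.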

How the results depend on the processing

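No called fold change of the 10 genes reversed under any alternative run. Some that were not called changed sign. That of Scnn1b did so with BBN963 tumour 1 or 2 left out. With 1 library left out, Fxyd3 ran from -0.10 to 0.13 between UPPL and BBN primary tumours, and Slc14a1 from -0.92 to 0.22 between UPPL1541 and BBN963 tumours. Leaving out 1 library gave 1410 values for single genes. Of these, 1328 kept their sign and their side of the threshold, 38 lost a call, 5 gained one and 39 moved. Moved means a changed sign, or a change to or from 0, with no call before or after. The other alternatives gave 627 values, with 579, 15, 11 and 22 in the same order. The number of genes called in primary tumours was 3, and 1 without the primary tumours UPPL1541 and BBN963 (2 to 3 when 1 library was left out). Between UPPL1541 and BBN963 tumours it was 1, and 4 with a pseudocount of 10, where Aqp3, Scnn1g and Tmprss2 were lower, and 2 with edgeR (1 to 2). BBN963 against BBN primary tumours gave 3, and 1 without the libraries of coarse low values (1 to 3). Tumours against cultures gave 3, 1 without a filter and 1 after quantile normalization, where St14 was lower (0 to 3). The other counts with 1 library left out were 10 to 10 for UPPL1541 and 8 to 9 for BBN963 against MB49, 4 to 5 for UPPL1541 against UPPL primary tumours and 1 to 1 for the interaction. The 3 correlations became 1 after quantile normalization. The causes were not tested. With the replicate block the 3 line-derived comparisons called 10, 8 and 1 of the genes, as without it. Same-numbered tumours of different lines had correlations of -0.0931 to 0.0659, and differently numbered ones -0.0708 to 0.0931. Values were centred within line, which makes the 2 BBN963 tumours mirror images. These correlations therefore cannot settle whether the numbers pair tumours.

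Over all genes, UPPL1541 against BBN963 tumours called 4208, 2682 with the replicate block and 2555 without BBN963 tumour 1. BBN963 against BBN primary tumours called 1182, 729 with edgeR, 309 without coarse libraries, and 232 and 653 without BBN963 tumour 1 or 2. The interaction called 1404, 775 after quantile normalization, 412 with edgeR, 299 without coarse libraries, and 296, 920 and 841 without BBN963 tumour 1, BBN963 tumour 2 or UPPL1541 tumour 1. Values of a few reads, above all in tumours whose most frequent low value is 10 reads or more, limit what can be said of Scnn1b and Scnn1g.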
